A study of Homo sapiens with 12 samples.

Results

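The ID and SMAD feedback genes are a small set of transcriptional targets and brakes of BMP and TGF-beta signalling. The set was given by name as ID1, ID2, ID3, ID4, SMAD6, SMAD7, SKIL and BAMBI, and it was selected on the lower ID2 values of gemcitabine-treated cells in these libraries. Of these 8 genes, 7 were among the 15090 genes listed for MIA PaCa-2, a human line derived from a pancreatic cancer and labelled wild type, and ID4 is not analysed here. ID1, ID2, ID3, SMAD6, SKIL and BAMBI reached 1 read per 1000000 (RPM) in all 12 libraries and were among 12789 genes tested. SMAD7 reached 1 RPM in 2 of 12 libraries and is given by its levels only.

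Total RNA was sequenced after 48 h in 4 groups of 3 biological replicates: 40 mM L-glutamine with 0.5 µM gemcitabine, 40 mM without the drug, 2 mM with 0.5 µM gemcitabine, and 2 mM without the drug. All cells were held in RPMI-1640 made without glutamine, to which L-glutamine was added back. Gemcitabine is a deoxycytidine analogue that blocks DNA synthesis, and the study asked how a high glutamine dose bears on the response to chemotherapy. All groups come from 1 cell line. The listed genes of a library held between 21723094 and 32811746 reads. Epithelial keratins were high (KRT8 between 1355 and 2357 RPM over the libraries), as was the mesenchymal marker vimentin (2944 to 3488 RPM). Of the other mesenchymal markers, ZEB1 had 36.9 to 47.2 RPM and FN1 only 0.448 to 2.72 RPM. The epithelial marker EPCAM and the mesenchymal marker CDH2 are not analysed here. Of 5 fibroblast markers 2 were listed, COL1A2 at 582 to 897 RPM and COL1A1 at 0.423 to 1.61 RPM, and their part in the results was not tested. In contrast, the leukocyte and endothelial markers that were listed, CD14, LYZ and CDH5, stayed below 1 RPM in every library. In RNA of whole cultures, fewer cells that express a gene and less of its RNA per cell cannot be told apart.

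BMP and TGF-beta ligands bind paired receptor kinases at the cell surface, which phosphorylate receptor-activated SMAD proteins. These join SMAD4, enter the nucleus and switch genes on or off. ID1, ID2, ID3 and ID4 are well-known targets of the BMP branch. They encode helix-loop-helix proteins without a DNA-binding region, which pair with E proteins such as TCF3 and keep them off their E-box sites, and they are known for holding cells in a proliferating, undifferentiated state. SMAD6 and SMAD7 are inhibitory SMADs induced by the pathway that they restrain. SKIL (SnoN) is a nuclear SMAD co-repressor. BAMBI is a membrane pseudoreceptor that resembles a type I receptor but lacks the kinase.

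The stretches upstream of ID1 and SMAD6 are shown because both genes are direct SMAD targets in textbook accounts and share the short SMAD-binding letters while differing in their arrangement. Both come from RefSeq (GRCh38.p14), 250 bases upstream of the annotated start and read 5′ to 3′ on the gene's strand. ID1 is at chr20:31605039-31605288 on the plus strand and SMAD6 at chr15:66701986-66702235 on the plus strand. Capitals mark GTCT or its reverse complement AGAC.
ID1: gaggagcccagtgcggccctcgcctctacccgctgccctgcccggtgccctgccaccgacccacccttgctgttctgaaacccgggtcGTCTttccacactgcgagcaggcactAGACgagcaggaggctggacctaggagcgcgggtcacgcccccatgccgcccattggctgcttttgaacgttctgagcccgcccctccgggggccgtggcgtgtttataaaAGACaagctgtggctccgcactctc
SMAD6: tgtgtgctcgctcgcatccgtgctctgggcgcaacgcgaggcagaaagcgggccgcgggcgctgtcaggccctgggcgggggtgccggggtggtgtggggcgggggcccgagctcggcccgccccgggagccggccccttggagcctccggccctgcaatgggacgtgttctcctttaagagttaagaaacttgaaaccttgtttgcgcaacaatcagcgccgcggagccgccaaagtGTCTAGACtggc

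ID1 holds 3 matches, which begin 162, 136 and 25 bases upstream of the start. In SMAD6 the 2 matches abut as the palindrome GTCTAGAC, 12 bases upstream of the start. GTCT on either strand was present in 77.5% of 35116 windows of the same length, and the palindrome in 0.182% (64 windows). The RefSeq windows of ID2 and ID3 lie inside these genes by the GENCODE positions given below. Each window holds a GTCT followed by an AGAC, shown here with flanks. The stretches are at chr2:8681944-8681973 on the plus strand and chr1:23559637-23559666 on the minus strand of the same build.
ID2: cgcccgctcGTCTtgatAGACgtgccacct
ID3: ctccgcgGTCTtcggcgtcAGACcagccgg

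The GC-rich BMP element GGCGCC was searched as well and was found in 16.4% of the windows. It had no match in the 250-base windows of ID1, ID2, ID3, SMAD6 or the 3 RefSeq starts of SMAD7. Bases farther upstream were not searched, so an element there would not be seen. There was 1 match in the window of SKIL and 3 in that of BAMBI. All windows are upstream of RefSeq starts. By the GENCODE positions given below, those of ID2, ID3 and SMAD7 lie inside the gene. The windows of ID1, SMAD6, SKIL and BAMBI reach into it. The E-box CANNTG, present in 61.8% of the windows, matched once in that of ID2 and once in those of 2 of the 3 SMAD7 starts. It had no match in the windows of ID1, ID3, SMAD6, SKIL or BAMBI. A match is a description of the letters and not a site of binding.

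The genes lay at very different levels. Per kilobase of the longest annotated coding transcript, ID1 averaged 225 RPM, ID3 182 RPM and ID2 17.7 RPM. SMAD6 averaged 2.33, SKIL 1.83, BAMBI 1.22 and SMAD7 0.141 RPM per kilobase. ID1 and ID3 stood at the 95.3 and 93.6 percentiles of mean level among tested genes, ID2 at 55.5, SKIL at 33.1, SMAD6 at 26.9 and BAMBI at 11.7. These levels rested on 5780 to 8345 reads per library for ID1 and on 35 to 75 reads for BAMBI, whose coefficient of variation from counting is 11.5% to 16.9%.

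**Figure D1:**
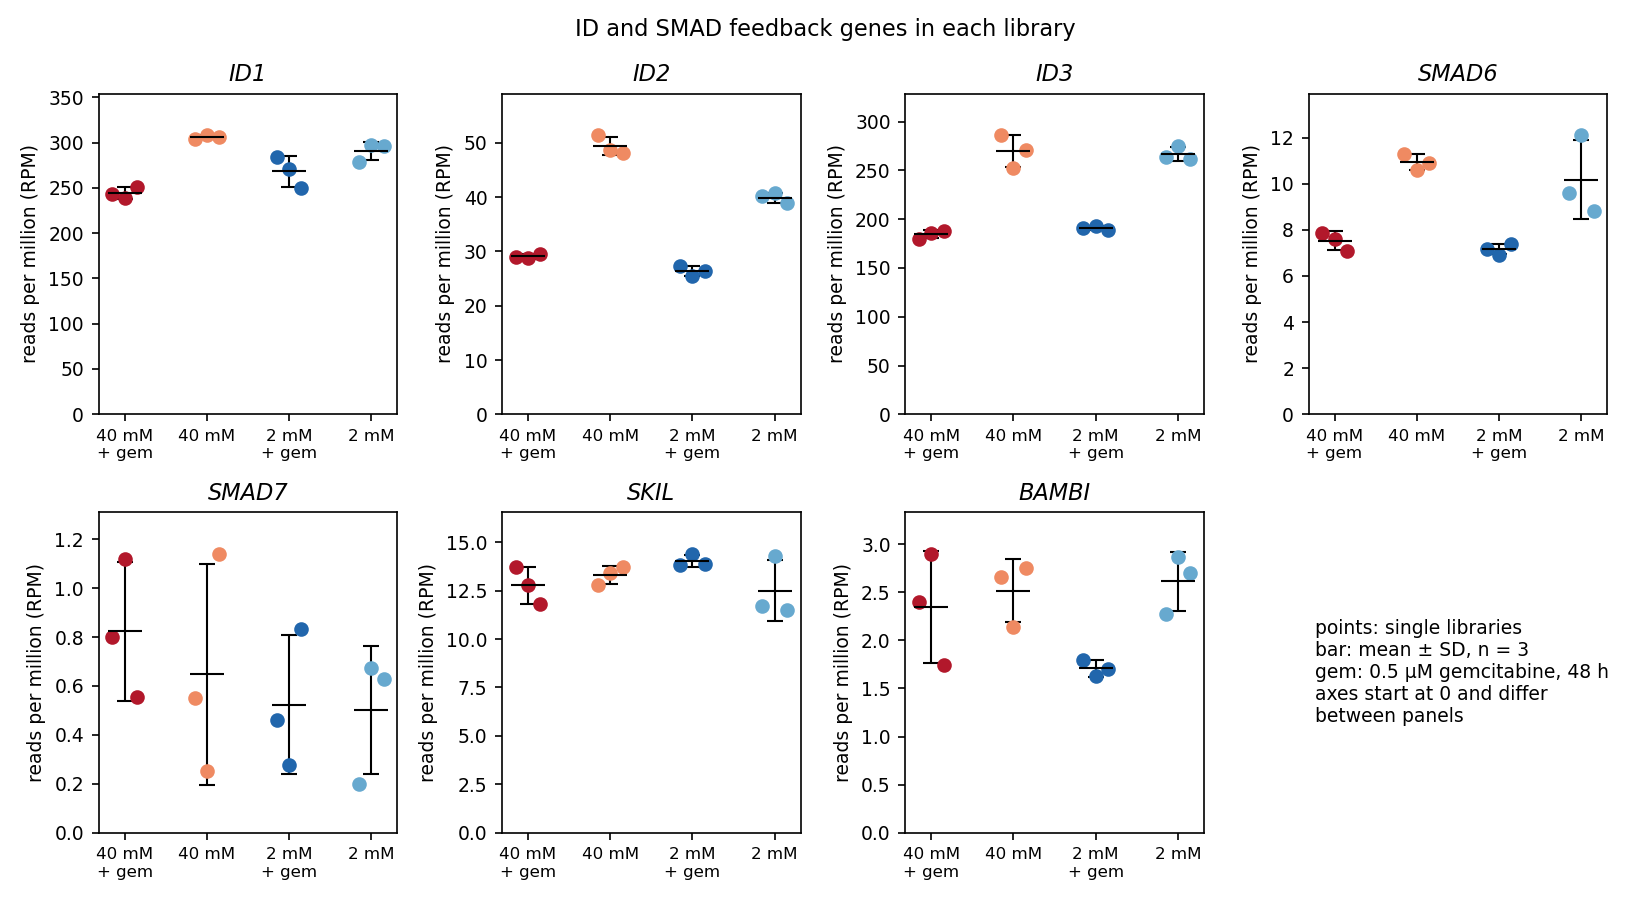
Level of each listed gene in RPM (vertical axis) in the 4 groups of MIA PaCa-2 cells; points are libraries and bars are means with SD (n = 3). ID2 separates all 4 groups, ID3 and SMAD6 are lower in both groups with gemcitabine, and the SKIL libraries with and without the drug overlap at each glutamine level.

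ID2 (chromosome 2, 8678845 to 8684453, plus strand, GENCODE release 29 on GRCh38), the gene whose drug response led to the choice of the set, was lower with gemcitabine at both glutamine levels. At 40 mM glutamine its levels were 28.9, 28.8 and 29.6 RPM with the drug, against 51.4, 48.7 and 48.2 RPM without it. At 2 mM glutamine they were 27.3, 25.5 and 26.4 RPM with the drug, against 40.2, 40.7 and 38.9 RPM without it. All libraries with the drug were below all libraries without it, and the order of the 4 groups had no overlap between neighbours: 40 mM without drug, 2 mM without drug, 40 mM with drug, 2 mM with drug. The drug differences were −0.74 ± 0.0563 (SE) at 40 mM and −0.58 ± 0.0563 at 2 mM. These and all differences below are on the log2(RPM + 1) scale, which understates changes of genes at low level. Of the tested genes, 11 had a lower drug difference than ID2 at 40 mM and 106 at 2 mM. Because the rule used these values, they are given with no test.

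The glutamine difference of ID2, which the rule did not name, was tested with limma and Benjamini-Hochberg adjustment over all tested genes. It uses the same libraries as the drug comparisons that chose ID2, so its p-values are not free of that choice. Without the drug, ID2 was higher at 40 mM than at 2 mM, by 0.30 ± 0.0563 (SE; 95% interval 0.19 to 0.42; adjusted p = 0.000203), a 1.23-fold difference with the 3 libraries of each group apart. This call held in all alternative analyses run, with differences between 0.27 and 0.32 and adjusted p between 7.47e-05 and 0.00262. With the drug, ID2 averaged 29.1 ± 0.427 RPM in the 40 mM group and 26.4 ± 0.902 RPM in the 2 mM group (SD, n = 3 each). That difference of 0.14 ± 0.0563 missed the threshold in the limma fit (95% interval 0.02 to 0.25; adjusted p = 0.0816), though the libraries were apart. It passed when the RPM values were taken over each library's own total (0.19, adjusted p = 0.0135). It also passed without a mean-variance trend in the fit (0.14, adjusted p = 0.0447). Over all alternatives the adjusted p lay between 0.0135 and 0.241. The drug difference at 40 mM less the one at 2 mM was −0.17 ± 0.0797 (SE), given with no test. An antisense gene, ID2-AS1, overlaps exons of ID2 and had 0.216 to 1.01 RPM. A processed pseudogene, AC104849.1, is 95.6% identical to ID2 over 405 bases, and how many ID2 reads it could share was not measured.

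ID1 (chromosome 20, 31605283 to 31606515, plus strand) was the most abundant of the set. At 40 mM it had 243, 239 and 251 RPM with gemcitabine, against 304, 308 and 306 RPM without it, and the libraries were apart. At 2 mM it had 284, 271 and 250 RPM with gemcitabine, against 279, 297 and 296 RPM without it, and the libraries overlapped. The drug differences of −0.32 ± 0.0359 (SE) at 40 mM and −0.12 ± 0.0359 at 2 mM are a description. The difference between these responses, −0.20 ± 0.0507 (95% interval −0.31 to −0.1), passed the limma test across all genes (adjusted p = 0.0238). Of the 5 tested members other than ID2, ID1 alone did so, where 2.2% of all tested genes passed and 1.47% passed as lower. This test is built from the drug comparisons that chose the set, so its p-value is not free of that choice.

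For glutamine, ID1 passed with the drug and not without it. Without gemcitabine it averaged 306 ± 1.98 RPM in the 40 mM group and 291 ± 9.99 RPM in the 2 mM group (SD, n = 3 each). The libraries were apart, but the limma difference of 0.07 ± 0.0359 (SE) did not pass (adjusted p = 0.161). With gemcitabine it averaged 244 ± 5.87 RPM at 40 mM and 268 ± 17.1 RPM at 2 mM, and it fell by 0.13 on the log2 scale (SE 0.0359; adjusted p = 0.00732, limma), with overlapping libraries. Without replicate 1 of the 2 mM group with drug, the difference was −0.09 (adjusted p = 0.105) and the difference between drug responses −0.16 (adjusted p = 0.108). Both calls were also lost when RPM values were taken over each library's own total (−0.08, adjusted p = 0.118, and −0.17, adjusted p = 0.0757). Over all alternatives the adjusted p lay between 0.000631 and 0.132 for glutamine with the drug, and between 0.00388 and 0.252 for the difference between drug responses.

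ID3 (chromosome 1, 23557918 to 23559794, minus strand) was lower with gemcitabine at both glutamine levels. At 40 mM it had 180, 186 and 188 RPM with gemcitabine, against 286, 253 and 271 RPM without it. At 2 mM it had 191, 193 and 189 RPM with gemcitabine, against 264, 275 and 262 RPM without it. The libraries were apart at both levels, and the drug differences were −0.55 ± 0.0358 (SE) at 40 mM and −0.48 ± 0.0358 at 2 mM. For glutamine, the limma differences were 0.02 without the drug (adjusted p = 0.816) and −0.05 with it (adjusted p = 0.334). Neither passed, though the libraries were apart in the comparison with the drug.

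ID1, ID2 and ID3 together had a lower summed level with gemcitabine, and their proportions differed. The sum was 458 ± 9.64 RPM with the drug and 625 ± 15.5 RPM without it at 40 mM, and 486 ± 18.9 RPM with the drug and 598 ± 14 RPM without it at 2 mM (SD, n = 3 each). ID2 made up 6.36% ± 0.0458 of the ID reads with the drug and 7.9% ± 0.169 without it at 40 mM, and 5.44% ± 0.235 with the drug and 6.68% ± 0.193 without it at 2 mM. The share of ID1 was 53.4% ± 0.513 with the drug and 48.9% ± 1.55 without it at 40 mM, and 55.1% ± 1.46 with the drug and 48.7% ± 0.917 without it at 2 mM. These shares rest on the values that chose ID2 and are a description.

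SMAD6 (chromosome 15, 66702228 to 66782848, plus strand), the inhibitory SMAD that mainly restrains BMP signals, was lower with the drug at both glutamine levels. It had 7.87, 7.62 and 7.07 RPM with gemcitabine, against 11.3, 10.6 and 10.9 RPM without it, at 40 mM. It had 7.19, 6.92 and 7.37 RPM with gemcitabine, against 9.61, 12.1 and 8.82 RPM without it, at 2 mM. The libraries were apart in both comparisons, with differences of −0.49 ± 0.108 (SE) at 40 mM and −0.44 ± 0.108 at 2 mM. Without replicate 2 of the drug-free 2 mM group, its highest library, the difference at 2 mM was −0.32. The glutamine differences were 0.10 ± 0.108 without the drug and 0.06 ± 0.108 with it, and neither passed in the limma fit (adjusted p = 0.563 and 0.739).

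SMAD7 (chromosome 18, 48919853 to 48952052, minus strand), the inhibitory SMAD of both branches, was barely detected, with 5 to 31 reads per library. At 40 mM it had 0.799, 1.12 and 0.553 RPM with the drug and 0.549, 0.252 and 1.14 RPM without it. At 2 mM it had 0.459, 0.279 and 0.833 RPM with the drug and 0.199, 0.672 and 0.63 RPM without it. The libraries of neighbouring groups overlapped. Pooled over a group, the level was 0.819 RPM (61 reads, exact Poisson 95% interval 0.626 to 1.05) with the drug and 0.669 RPM (50 reads, 0.496 to 0.882) without it at 40 mM, and 0.562 RPM (45 reads, 0.41 to 0.752) with it and 0.497 RPM (37 reads, 0.35 to 0.686) without it at 2 mM. These intervals cover counting error only, and differences between groups were not tested for SMAD7.

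SKIL (chromosome 3, 170357678 to 170396835, plus strand) had overlapping libraries in the drug comparison at both glutamine levels. At 40 mM it had 13.7, 12.8 and 11.8 RPM with gemcitabine, against 12.8, 13.4 and 13.7 RPM without it. At 2 mM it had 13.8, 14.4 and 13.9 RPM with gemcitabine, against 11.7, 14.3 and 11.5 RPM without it. All 3 libraries at 2 mM with gemcitabine lay above all 6 at 40 mM, while those at 2 mM without it spread across the range. The drug differences were −0.06 at 40 mM and 0.16 at 2 mM (SE 0.0924). The glutamine differences in the limma fit were 0.09 ± 0.0924 (SE) without the drug (adjusted p = 0.534) and −0.12 ± 0.0924 with it (adjusted p = 0.371), where the libraries were apart but the difference did not pass.

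BAMBI (chromosome 10, 28677342 to 28682939, plus strand) had libraries apart with gemcitabine at 2 mM and overlapping at 40 mM. At 2 mM it had 1.8, 1.63 and 1.7 RPM with the drug, against 2.27, 2.87 and 2.7 RPM without it. At 40 mM it had 2.4, 2.9 and 1.74 RPM with the drug, against 2.66, 2.14 and 2.75 RPM without it. The drug differences were −0.08 ± 0.153 (SE) at 40 mM and −0.41 ± 0.153 at 2 mM, and the difference between them, 0.33 ± 0.216, did not pass in the limma fit (adjusted p = 0.488). The value at 2 mM depends on the pseudocount, at −0.58 with a pseudocount of 0.1 and −0.18 with one of 5.

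Read across the 6 tested genes, 4 had all libraries with the drug below all without it at 40 mM (ID1, ID2, ID3 and SMAD6), where 21.4% of all tested genes did. At 2 mM, 4 did (ID2, ID3, SMAD6 and BAMBI), where 22.8% of all tested genes did. Nothing is read from these shares, since the drug contrast chose the set. Of the 6 members, ID2 alone passed the limma threshold for glutamine without the drug, where 17.5% of all tested genes passed (8.41% higher, 9.12% lower). ID1 alone passed with the drug, where 21.6% did (8.62% higher, 13% lower). A share of 1 in 6 is near the background. All 4 comparisons reuse the same 12 libraries, each group serving in a drug and a glutamine comparison.

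**Figure D2:**
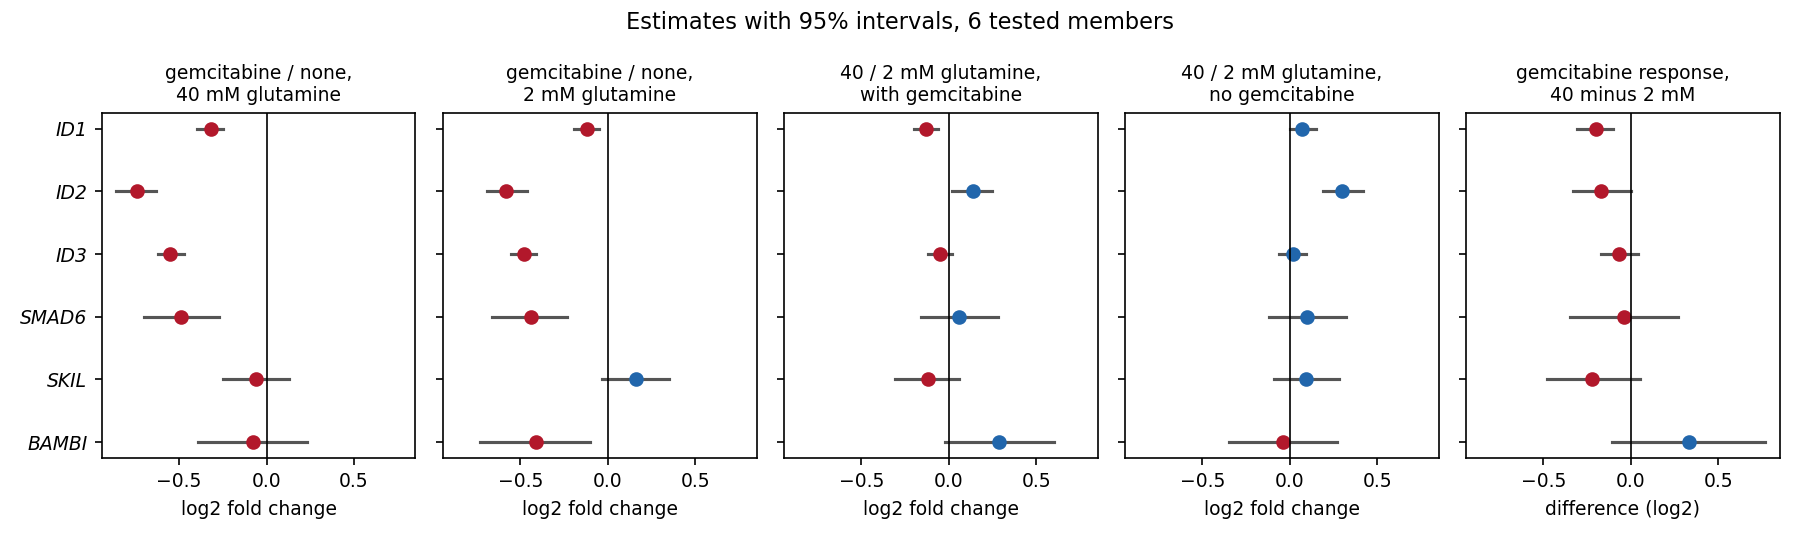
Differences in log2(RPM + 1) with 95% intervals for the 6 tested genes in each comparison and for the difference between drug responses; points above 0 are blue and points below 0 red. ID2, ID3 and SMAD6 lie below 0 in both drug comparisons, and the interval of ID2 for glutamine without the drug runs from 0.19 to 0.42.

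Other genes of the pathway moved both ways with the drug. Of 75 tested genes in lists of ligands, receptors, SMADs, inhibitors, targets and helix-loop-helix partners, 17 rose and 10 fell with gemcitabine at 40 mM, and 15 rose and 16 fell at 2 mM. Over all tested genes, 30.3% passed at 40 mM (14.1% higher, 16.2% lower) and 34.6% at 2 mM (17.5% higher, 17.1% lower), and the list shares were 36% and 41.3%. For glutamine, 5 of the 75 rose and 17 fell without the drug, and 5 rose and 11 fell with it. The list shares were 29.3% without the drug and 21.3% with it, beside 17.5% (8.41% higher, 9.12% lower) and 21.6% (8.62% higher, 13% lower) of all tested genes. The split of the calls over all tested genes depends on the scaling: the share called higher was 48% without the drug and 39.9% with it, against 61.2% and 68.2% when RPM values were taken over each library's own total.

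**Figure D3:**
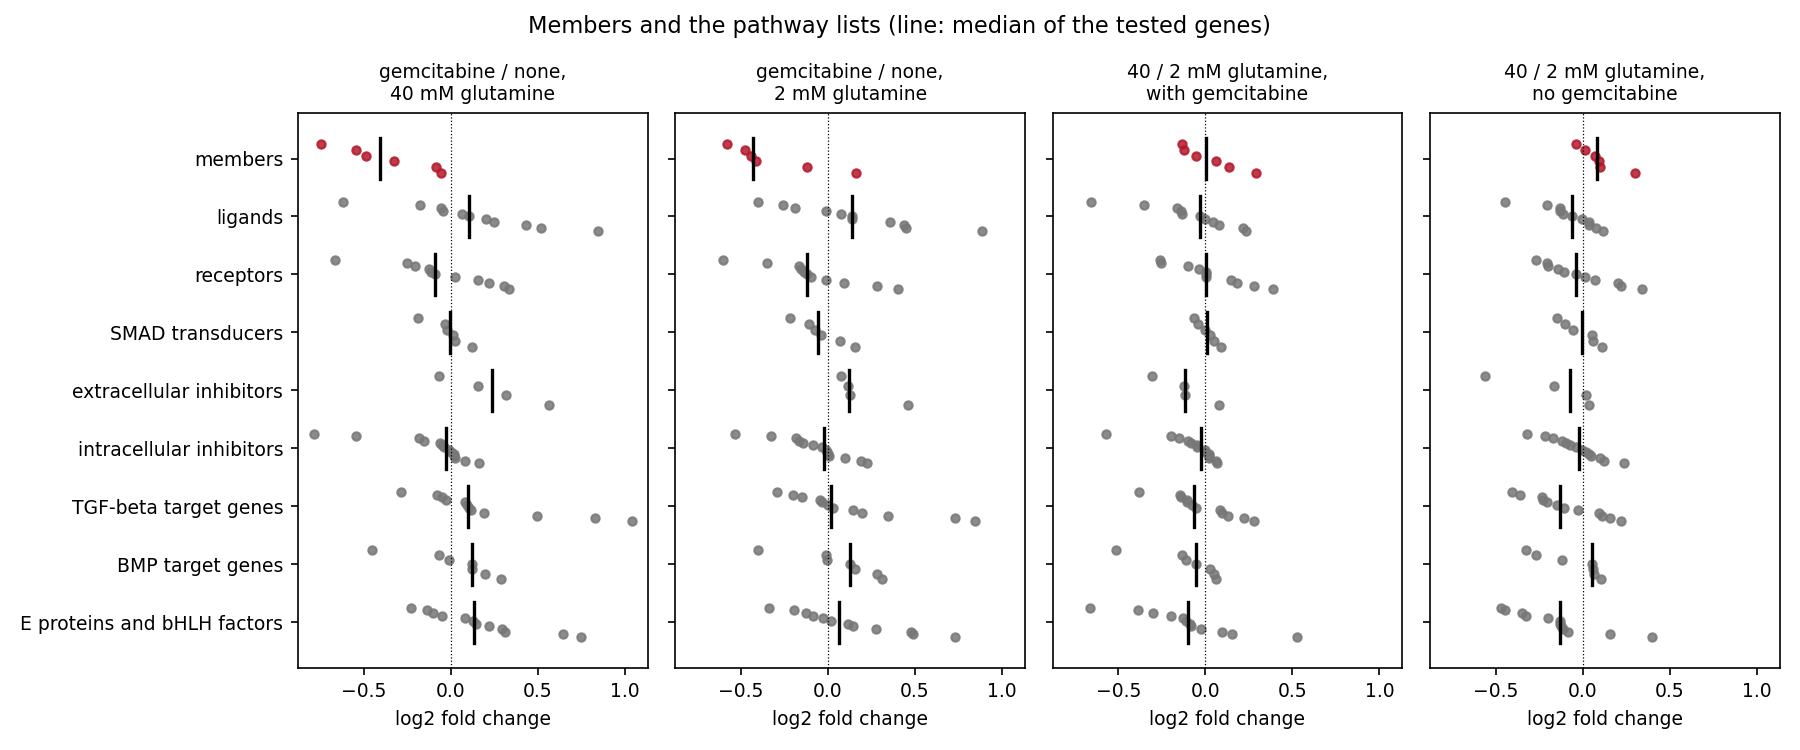
Differences in log2(RPM + 1) (horizontal axis) of the 6 members (red) and of the tested genes of each pathway list (grey) in the 4 comparisons, each point a gene and each vertical line a median. The members' median is −0.4 with gemcitabine at 40 mM and −0.43 at 2 mM, a description since the drug response chose the set, while list medians lie between −0.12 and 0.24 in those panels.

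Among 11 tested ligands, 3 rose and 1 fell with gemcitabine at each glutamine level. For comparison, 14.1% of all tested genes rose and 16.2% fell at 40 mM, and 17.5% rose and 17.1% fell at 2 mM. TGFB1, the founding TGF-beta ligand, rose by 0.52 ± 0.0571 (SE; adjusted p = 7e-09, limma) at 40 mM and 0.44 ± 0.0571 (adjusted p = 2.01e-07) at 2 mM, with 51.8 ± 2.48 RPM with the drug and 35.8 ± 1.51 RPM without it at 40 mM. BMP6, a BMP ligand, rose by 0.88 ± 0.123 at 2 mM (adjusted p = 7.65e-07), with 8.94 ± 0.654 RPM with the drug and 4.39 ± 0.42 RPM without it. At 40 mM BMP6 rose by 0.43 (adjusted p = 0.00733), a call lost without replicate 1 of the 40 mM group with drug (adjusted p = 0.0527). The ligand that fell was BMP3 at 40 mM (−0.62, adjusted p = 0.00691), at 0.736 RPM with the drug and 1.66 RPM without it. At 2 mM it was BMP8B (−0.26, adjusted p = 0.0151). Ligand genes such as BMP4, BMP2 and INHBA are not analysed here.

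Of 11 tested receptors and co-receptors, 3 rose and 2 fell at 40 mM, and 2 rose and 5 fell at 2 mM. The shares of all tested genes were 14.1% higher and 16.2% lower at 40 mM, and 17.5% higher and 17.1% lower at 2 mM. TGFBR3 (betaglycan), a TGF-beta co-receptor, fell by 0.66 at 40 mM and 0.60 at 2 mM on the log2 scale (SE 0.0529; limma adjusted p = 5.11e-12 and 4.87e-11), with 45.7 ± 0.752 RPM with the drug and 73.1 ± 2.91 RPM without it at 40 mM. BMPR1A, a type I BMP receptor, fell by 0.21 at 40 mM (adjusted p = 0.000398). TGFBR1, a type I TGF-beta receptor, rose by 0.22 at 40 mM and 0.28 at 2 mM (limma adjusted p = 0.0294 and 0.0051). Its call at 40 mM was lost without some single libraries, such as replicate 1 of the drug-free group (0.20, adjusted p = 0.1). TGFBR1 was also higher at 40 than at 2 mM glutamine without the drug (0.34, adjusted p = 0.00209) and with it (0.28, adjusted p = 0.0085). RGMB, a co-receptor, rose by 0.30 at 40 mM (adjusted p = 0.000109). ENG (endoglin), another co-receptor, was lower at 40 than at 2 mM glutamine both without the drug (−0.27 ± 0.0474, adjusted p = 0.000108) and with it (−0.26 ± 0.0474, adjusted p = 0.000142). Of the 6 receptor-activated and common SMADs, SMAD2, a signal carrier of the TGF-beta branch, fell with the drug at both glutamine levels (−0.19 at 40 mM and −0.22 at 2 mM, limma adjusted p = 0.00727 and 0.00195), and SMAD1, SMAD3, SMAD4, SMAD5 and SMAD9 did not pass. At 40 mM the SMAD2 value was −0.13 and did not pass without replicate 2 of the drug-free group. SMAD5 at 2 mM (−0.11, limma adjusted p = 0.0551) passed as lower in some alternatives, such as quantile normalization (−0.13, adjusted p = 0.0253).

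Inhibitors outside the set moved both ways. NOG (noggin), which traps BMP ligands outside the cell, rose by 0.32 ± 0.0665 at 40 mM (limma adjusted p = 0.000323) and 0.46 ± 0.0665 at 2 mM (adjusted p = 1.55e-06). Of 4 tested extracellular inhibitors, 3 rose at 40 mM and 2 at 2 mM, where 14.1% and 17.5% of all tested genes rose. That list held 16 names, of which 11 are not analysed here and 1 was too low to test. Inside the cell, PMEPA1, which keeps SMADs from their receptors, fell by 0.79 at 40 mM (SE 0.0788; adjusted p = 1.01e-09) and 0.53 at 2 mM (adjusted p = 1.93e-06). It also fell with high glutamine, by 0.32 without the drug and 0.57 with it (adjusted p = 0.00422 and 2.12e-06). PMEPA1 had 13.1 ± 1.53 RPM with the drug and 23.2 ± 0.958 RPM without it at 40 mM. TOB1, an antiproliferative protein that binds SMADs, fell by 0.54 and 0.32 (SE 0.0501; adjusted p = 1.63e-10 and 4.12e-06) at 40 and 2 mM. SMURF2, a ubiquitin ligase that targets receptors and SMADs, rose by 0.16 and 0.19 (adjusted p = 0.000695 and 8.86e-05).

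TGF-beta target genes moved both ways with the drug, and most of those tested did not pass. LTBP2, a latent TGF-beta binding protein relative of the matrix, had 25.2 ± 2.68 RPM with the drug and 13.8 ± 1.22 RPM without it at 40 mM, and 33.1 ± 0.803 RPM with the drug and 17.9 ± 1.04 RPM without it at 2 mM (SD, n = 3 each). It rose by 0.83 at 40 mM and 0.85 at 2 mM (SE 0.0799; limma adjusted p = 4.51e-10 and 2.56e-10). TSC22D1, a transcription regulator named for its induction by TGF-beta, fell by 0.29 at each level (adjusted p = 1.16e-07 and 8.87e-08). Of 12 tested TGF-beta targets, 4 rose and 1 fell at 40 mM and 3 rose and 2 fell at 2 mM. Over all tested genes, 14.1% passed as higher and 16.2% as lower at 40 mM, and 17.5% and 17.1% at 2 mM. Of 7 tested BMP targets outside the set, 0 passed with the drug at either level, in the limma fit or with voom weights on recovered reads. In the limma fit 30.3% of all tested genes passed at 40 mM and 34.6% at 2 mM. Among the 7 targets, 2 at each level had an unadjusted p under 0.05. MSX2 at 40 mM (−0.45, limma adjusted p = 0.0588) passed as lower in some alternatives, such as quantile normalization (−0.53, adjusted p = 0.0281).

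The partners of the ID proteins were also measured. TCF3, the E protein that ID proteins sequester, had 295 ± 5.39 RPM with the drug and 325 ± 13.7 RPM without it at 40 mM, and 323 ± 3.98 RPM with the drug and 352 ± 4.49 RPM without it at 2 mM. It fell by 0.14 at 40 mM and 0.12 at 2 mM on the log2 scale (SE 0.0309; limma adjusted p = 0.000713 and 0.00184). The E protein TCF12 had −0.05 and −0.09 and did not pass. HES4, a helix-loop-helix repressor of the Notch-regulated family, rose by 0.75 at 40 mM and 0.73 at 2 mM (SE 0.0889, adjusted p = 3.53e-08 and 5.38e-08). HES1, of the same family, fell by 0.34 at 2 mM (adjusted p = 0.0185) and did not pass at 40 mM (−0.10). Without replicate 3 of the 2 mM group with drug, the HES1 value was −0.21 and did not pass. Of 12 tested E proteins and other helix-loop-helix factors, 3 rose and 1 fell at 40 mM, and 3 rose and 2 fell at 2 mM. Among all tested genes, 14.1% rose and 16.2% fell at 40 mM, and 17.5% rose and 17.1% fell at 2 mM.

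**Figure D4:**
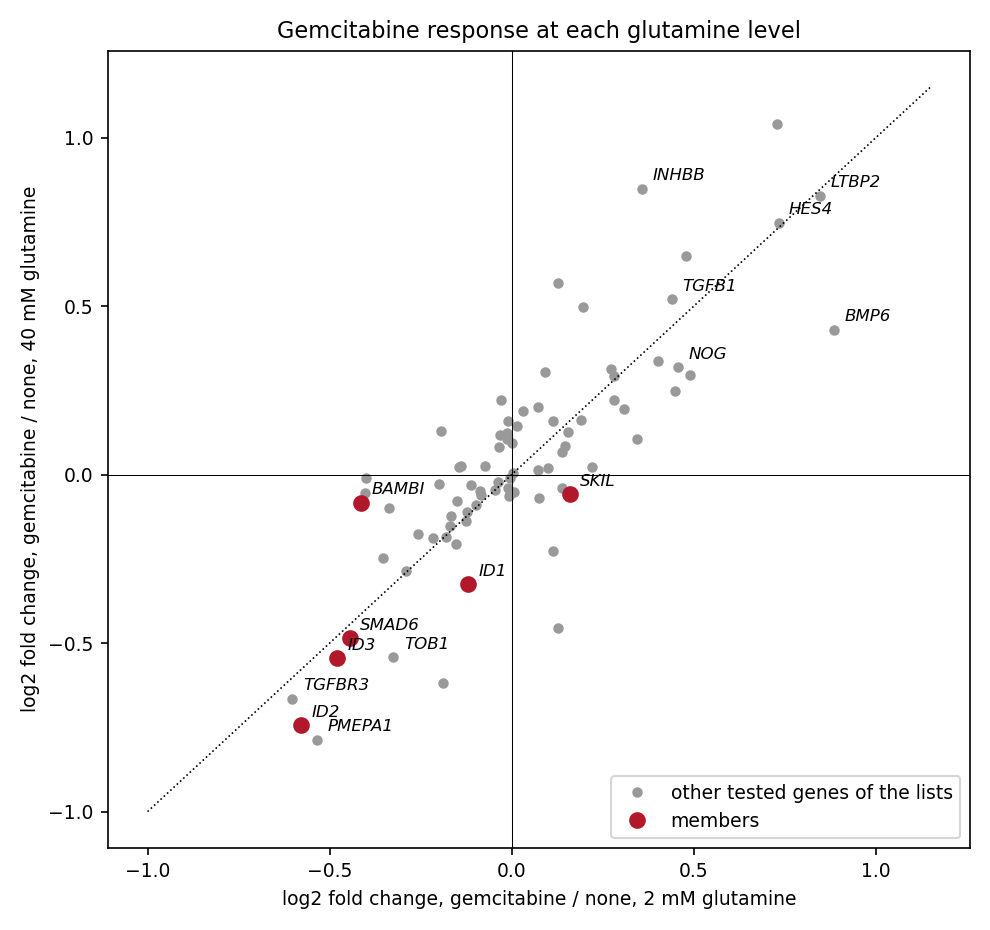
Drug difference at 2 mM glutamine (horizontal axis) and at 40 mM (vertical axis), in log2(RPM + 1), for the 6 members (red) and the tested genes of the pathway lists (grey); the dotted line marks equal differences. ID2, ID3 and SMAD6 lie at the lower left with TGFBR3 and PMEPA1, while LTBP2 and HES4 lie at the upper right.

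Across the 12 libraries ID2, ID3 and SMAD6 had the most similar profiles among the members. Pearson correlations of the log2 values were 0.928 between ID2 and ID3, 0.924 between ID2 and SMAD6, and 0.916 between ID3 and SMAD6. SKIL correlated with the other members between −0.207 and 0.033. The 12 points share 4 groups, so these values are a description and carry no p. They also span the drug difference that chose the set, and shared regulation of the members was not tested. Among 6392 other genes at or above the median level, the profile closest to ID2 was that of PNPLA6 (r = 0.994), followed by ERMP1 (0.993), NR2F1 (0.991), CTSB (0.991) and MXD4 (0.988), all over 12 libraries. The nearest profiles to ID3 were TUBB3 (0.987) and COL5A2 (0.984), to ID1 DHCR7 (0.963) and TUBGCP2 (0.96), and to SMAD6 SLC39A9 (0.962) and NRDC (0.961). SKIL had no comparably close profile (DDRGK1, 0.844).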

How the data were processed

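Per the labels' protocols, total RNA was purified on silica columns and libraries were made by a company. The sources used here name no aligner, counting program, strand setting or genome build. The authors deposited log2 values for 15090 genes in 12 libraries. Their unit was worked out from the values as log2(RPM + 1): in every library 100% of values were whole multiples of 1 read within 0.05 read. The deposited values carry scaling factors of 0.9794 to 1.0292, and those of the 40 mM group with drug (1.0263 to 1.0292) are the highest.

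The log2 values were fitted with limma (3.58.1, R 4.3.3) as 4 group means over 12 libraries, moderated by empirical Bayes along a mean-variance trend, two-sided, with Benjamini-Hochberg adjustment over 12789 genes that reached 1 RPM in at least 3 libraries and a threshold of 0.05. Replicate pairs differed by more than sampling noise (chi-square over degrees of freedom 2.381 to 5.642). The fit was tested on simulated data. Alternatives covered filters, pseudocounts, scaling, voom weights on recovered reads, moderation, samples in the fit, a replicate block and each library left out. The members and lists were chosen with earlier results of these data known. Named were all members and, per list and comparison, the 3 genes of smallest p past the threshold, with pathway genes fixed by name, and the 5 closest profiles of each member; the text gives part of these. Promoter windows and gene positions come from RefSeq and GENCODE tables on GRCh38. Results of 1 gene that the rule names are not reported here, though it remains in all fits and counts.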

Additional observations from a re-analysis of the deposited data

Results flagged for a closer look

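Among the members, ID1 had a drug response that differed between glutamine levels by the test of the difference itself (limma, adjusted over all tested genes). The drug difference at 40 mM less the one at 2 mM was −0.20 on the log2 scale (adjusted p = 0.0238). Drug comparisons chose the set, so this p-value is not free of that choice. It missed the threshold with own-total scaling (adjusted p = 0.0757), without a mean-variance trend (adjusted p = 0.252) and without any of 6 single libraries (adjusted p between 0.0573 and 0.108). ID1 had 244 ± 5.87 RPM with the drug and 306 ± 1.98 RPM without it at 40 mM, and 268 ± 17.1 RPM with the drug and 291 ± 9.99 RPM without it at 2 mM (SD, n = 3 each).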

How the results depend on the processing

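Over all alternatives run, 650 of 679 values for the members were scored as the same. For tested comparisons this meant the same direction and side of the threshold. For the members' drug differences and the ID2 difference between drug responses it meant a shift below the pooled SD within groups. There the BAMBI drug difference at 40 mM, which lay between −0.2 and 0.05, was not scored as reversed. Of the values for named pathway genes, 4852 of 4991 kept their direction and side of the threshold. For pathway genes past the threshold in neither setting no direction was scored, a choice made after seeing the data. Without a mean-variance trend, 0 genes passed for the difference between drug responses, against 281, so the call of ID1 was lost. The members' calls for that difference numbered 0 with own-total scaling and 0 without the trend. Under quantile normalization 2 members passed for glutamine without the drug (ID1 at 0.11, adjusted p = 0.0268, and ID2) and 0 with it. Leaving out single libraries gave 1685 to 2283 calls for glutamine without the drug, 2079 to 2929 with it, 3539 to 4586 for the drug at 2 mM, 3241 to 3930 at 40 mM and 155 to 366 for the difference; members called ranged from 1 to 1, 0 to 1 and 0 to 1 in the 3 tested comparisons. The ID1 difference between drug responses missed the threshold without any of 6 single libraries (adjusted p 0.0573 to 0.108). Among tested values, the ID3 glutamine difference with the drug reversed (0.00 with own-total scaling) and passed in neither setting. With single libraries left out, the same held for the glutamine differences without the drug of ID3 (−0.03 to 0.06) and BAMBI (−0.11 to 0.04). It also held for the SMAD6 difference between drug responses (−0.16 to 0.05). Own-total scaling gave 68.2% of calls as higher for glutamine with the drug (quantile 50.1%), against 39.9%; for glutamine without the drug 61.2% against 48%, for the drug at 40 mM 62.9% against 46.6%, and for the difference 58.9% (quantile 54.7%) against 33.1%. BAMBI has no value under the 5 RPM filter. Same-numbered replicates did not deviate together (18 pairs, correlations −0.077 to 0.048), and with a replicate block 2292, 2786, 4424, 3893 and 306 genes passed, against 2242, 2765, 4422, 3879 and 281, with no member's call changed. The cause of these changes was not tested.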
